A study of Mus musculus with 4 samples.

Results

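The immunity-related GTPases (IRGs) and guanylate-binding proteins (GBPs) are interferon-inducible GTPases of cell-autonomous defence. The genes described here are Iigp1, Irgm1, Irgm2, Igtp, Gbp2, Gbp3 and Gbp7, taken from the deposited expression table by gene name, and all 7 were found among its 21044 genes. They were chosen as interferon-gamma-responsive GTPases, with Iigp1 already known to stand out between the genotypes in these libraries, so their differences between genotypes are given as a description and not as a test. RNA-seq was made of microglia, the resident macrophages of the brain, isolated from the corpus callosum of mice at postnatal day 7. The cKO group has 2 libraries from mice named Lag3cKO-Cx3, with the genotype label ko, in which Lag3, an inhibitory immune receptor gene, is deleted conditionally. The WT group has 2 libraries from Lag3fl/fl mice, with the genotype label wt, and are thus floxed at Lag3 by name. The driver is named only as Cx3, which points to the Cx3cr1 locus used in microglia and other mononuclear phagocytes. Its allele, and whether WT mice carry it, are not given in these sources. Whether a library is a single animal or a pool is not stated either, so any p-value reflects library-to-library spread alone, which may be technical.

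IRGs fall into effectors and regulators. Effector IRGs such as the product of Iigp1 (Irga6) bind GTP and coat the vacuole membrane around intracellular parasites such as Toxoplasma, while the IRGM proteins encoded by Irgm1, Irgm2 and Igtp (Irgm3) sit on the cell's own membranes and hold the effectors in an inactive state there. GBPs are larger, dynamin-related GTPases that assemble on pathogen-containing vacuoles and on bacteria and promote their disruption and the activation of caspases. Transcription of these genes is induced through a pair of promoter elements, the gamma-activated site (GAS) and the interferon-stimulated response element (ISRE), the second of which binds IRF factors.

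The members lie in gene clusters. By the positions in the deposited table, which match GRCm38, Gbp7 (chromosome 3, 142530342 to 142550149, plus strand), Gbp3 (142560026 to 142573209) and Gbp2 (142620602 to 142638008) follow each other on the plus strand of chromosome 3. Igtp (chromosome 11, 58199556 to 58207591) starts just before Irgm2 (58199618 to 58222782) and overlaps its annotated span on the same strand, and Irgm1 (48861968 to 48871683, minus strand) lies elsewhere on chromosome 11. All 7 members are annotated as protein-coding.

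Promoters of 6 of the 7 members were found in the RefSeq table for GRCm38.p6, and Iigp1 was not among them. The ISRE core, searched on both strands as 2 copies of GAAA separated by any 2 bases, in the 300 bases from 250 before to 50 after each annotated start, was present in all 6, at the first listed start of each gene, against 3.44% of all 32851 promoters in the table. The GAS core, searched as TTCNNNGAA on both strands, was present in 3 of the 6 (Irgm2, Igtp and Gbp7) against 8.30% of all promoters, and none of its matches overlapped an ISRE match. A match to these letters describes the sequence and does not show that a factor is bound. The 120 bases before the start are shown for the neighbouring genes Igtp and Irgm2, whose promoters are near copies of each other (the RefSeq start of Irgm2 used here lies inside its annotated span), and for the neighbours Gbp3 and Gbp7, with the ISRE core matches in capitals.
Igtp, chr11:58199436-58199555, plus strand: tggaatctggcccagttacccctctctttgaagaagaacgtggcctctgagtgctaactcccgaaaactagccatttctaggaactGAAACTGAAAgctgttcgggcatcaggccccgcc
Irgm2, chr11:58214857-58214976, plus strand: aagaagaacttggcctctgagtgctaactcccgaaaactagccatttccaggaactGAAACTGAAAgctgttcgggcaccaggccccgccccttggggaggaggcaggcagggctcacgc
Gbp3, chr3:142559924-142560043, plus strand: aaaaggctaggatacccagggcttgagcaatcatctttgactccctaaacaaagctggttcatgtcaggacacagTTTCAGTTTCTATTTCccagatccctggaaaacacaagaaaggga
Gbp7, chr3:142530216-142530335, plus strand: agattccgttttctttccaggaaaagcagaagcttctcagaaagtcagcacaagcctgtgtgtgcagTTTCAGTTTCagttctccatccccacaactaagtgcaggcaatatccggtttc
The ISRE core began at position -34 from the start in Igtp and at -64 in Irgm2, in both within the same longer run of sequence. These 2 promoters were identical at 244 of 265 aligned bases, 92.1%. In Gbp3 a pair of overlapping matches began at -45 and -39, on the opposite strand, as did the match at -53 in Gbp7. A second annotated start of Gbp3 had no match. Irgm1 had overlapping matches at -30 and -24, and Gbp2 had its match at -59 (first base, upstream being negative).

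The libraries were first checked by the targeted gene and by markers. Lag3 had 595 and 257 counts in cKO libraries and 6064 and 10007 in WT libraries, and Cx3cr1, the fractalkine receptor gene, was at 3219 ± 262 CPM in cKO and 6498 ± 78.5 CPM in WT (SD, n = 2 each), where CPM are counts scaled to library size with TMM factors. Total counts were 14645187 to 16770162 per library, and genes with a count numbered 15491 and 12787 in cKO replicates 1 and 2 and 14840 and 15899 in WT replicates 1 and 2. The 13 microglial markers summed to 34780 and 33570 CPM in cKO libraries and 33260 and 37230 CPM in WT libraries, with none at 0, so the defining markers of microglia were present in every library. Single markers differed in either direction, with 9 fitted higher and 4 lower. Without overlap, 3 were higher in cKO (Tmem119, P2ry12 and Aif1) and 2 lower (Cx3cr1 and Sall1), against 15.8% and 20% of all genes tested. cKO replicate 2 stood apart, with the fewest genes detected. It had 0 counts of the Y-linked gene Ddx3y and 4355 counts of Xist, while cKO replicate 1 had 1795 and 117 and the WT libraries had 1485 and 1306 counts of Ddx3y and 0 of Xist. Neutrophil and monocyte markers summed to 42.0 and 194.3 CPM in cKO replicates 1 and 2 and to 43.8 and 19.5 CPM in WT replicates 1 and 2, over 9 genes with counts of 10 listed. Of the 8 tested, 7 were fitted higher and 1 lower (median log2 fold change 1.28), where 48.2% of all genes tested were fitted higher. Of the 8, 3 (Ngp, Ccr2 and Cxcr2) were higher in cKO without overlap, against 15.8% of all genes. The receptor gene Cxcr2 had 175 and 252 counts in cKO libraries and 37 and 42 in WT libraries, and the granule gene Ltf had 0 and 632 in cKO and 2 and 18 in WT. Astrocyte markers, of which 1 of 10 was at 0 in cKO replicate 2 and 1 in WT replicate 2, summed to 239.3 and 525.1 CPM in cKO libraries and 225.6 and 183.4 CPM in WT libraries. All 9 tested were fitted higher (median log2 fold change 1.44), against 48.2% of all genes. Without overlap, 6 of 9 were higher in cKO, against 15.8% of all genes. S100b, which was not tested, had 1 and 0 counts in cKO libraries and 9 and 11 in WT libraries. Slc1a3, a glutamate transporter gene, had 1365 and 1986 counts in cKO libraries and 528 and 661 in WT libraries. Border macrophage markers summed to 509.1 and 530.3 CPM in cKO libraries and 489.2 and 537.9 CPM in WT libraries. For endothelium the sums were 21.9 and 22.5 CPM in cKO and 16.4 and 21.8 CPM in WT. Oligodendrocyte lineage markers stood at 212.4 and 136.6 CPM in cKO and 131.1 and 137.3 CPM in WT. The highest level of each member described below was in cKO replicate 2, as were the highest sums of neutrophil and monocyte and of astrocyte markers. The part of these other cell types, of the number of genes detected or of sex in the members' values was not tested. Cx3cr1, to which the driver's name points, was lower in both cKO libraries, as Lag3 was. Its part in the members' values was not tested either. In such bulk libraries a larger share of a cell type and more RNA per cell cannot be told apart.

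Iigp1 (chromosome 18, 60376029 to 60392627, plus strand), the effector IRG, showed the widest separation of the 7. It had 217 and 404 counts in cKO libraries and 24 and 17 in WT libraries, or 12.9 and 26.9 CPM in cKO replicates 1 and 2 against 1.53 and 1.16 CPM in WT replicates 1 and 2. The groups did not overlap, and the lower cKO library was at 8.44 times the higher WT library. The mean was 19.9 ± 9.91 CPM in cKO and 1.35 ± 0.262 CPM in WT (SD, n = 2 each). The fitted log2 fold change was 3.88 (standard error, SE, 0.75), a 14.7-fold difference, and lay between 3.26 and 4.31 with any 1 library left out. On the log2(FPKM + 1) scale, which understates the change of low genes, it was 2.32. The WT counts were low, but above the floor of 3 counts per library.

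The regulatory IRGM genes were higher in cKO replicate 2 and near the WT range in cKO replicate 1. Irgm1, whose product controls autophagy and the IRG effectors, had 736 and 1875 counts in cKO libraries and 687 and 288 counts in WT libraries. That is 43.8 and 125.0 CPM in cKO replicates 1 and 2 against 43.8 and 19.7 CPM in WT replicates 1 and 2. cKO replicate 1 and WT replicate 1 were thus equal at 1.00-fold, and the groups separated only in decimals. Its fitted log2 fold change of 1.41 (SE 0.67) was 0.47 without cKO replicate 2. Irgm2 had 39.1 and 86.0 CPM in cKO libraries and 33.2 and 14.5 CPM in WT libraries, with a fitted log2 fold change of 1.39 (SE 0.61) that was 0.71 without cKO replicate 2.

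Igtp, the third IRGM gene, behaved differently in the WT libraries. It had 58.1 and 154.1 CPM in cKO libraries and 35.5 and 43.1 CPM in WT libraries. Here WT replicate 1 was the lower of the WT libraries, at 0.823 of WT replicate 2, whereas Irgm1 and Irgm2 were in WT replicate 1 at 2.23 and 2.29 times WT replicate 2. The groups did not overlap, with cKO replicate 1 at 1.35 times WT replicate 2. The fitted log2 fold change was 1.43 (SE 0.52), and 0.56 without cKO replicate 2.

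The GBP genes spread in the same way, and in Gbp3 the groups overlapped. Gbp2, whose product is anchored to membranes by a lipid tail, had 23.2 and 57.6 CPM in cKO libraries and 20.5 and 12.4 CPM in WT libraries. Gbp3 had 43.3 and 94.3 CPM in cKO libraries and 46.4 and 16.2 CPM in WT libraries, so cKO replicate 1 lay below WT replicate 1. Gbp7 had 107.5 and 210.4 CPM in cKO libraries and 87.4 and 77.1 CPM in WT libraries. Its WT libraries were the closest of the 7 members, WT replicate 1 being 1.13 times WT replicate 2, and the groups did not overlap. The fitted log2 fold changes were 1.30 for Gbp2, 1.13 for Gbp3 and 0.95 for Gbp7, with SEs of 0.59, 0.66 and 0.37. Without cKO replicate 2 they were 0.50, 0.47 and 0.39.

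**Figure D1:**
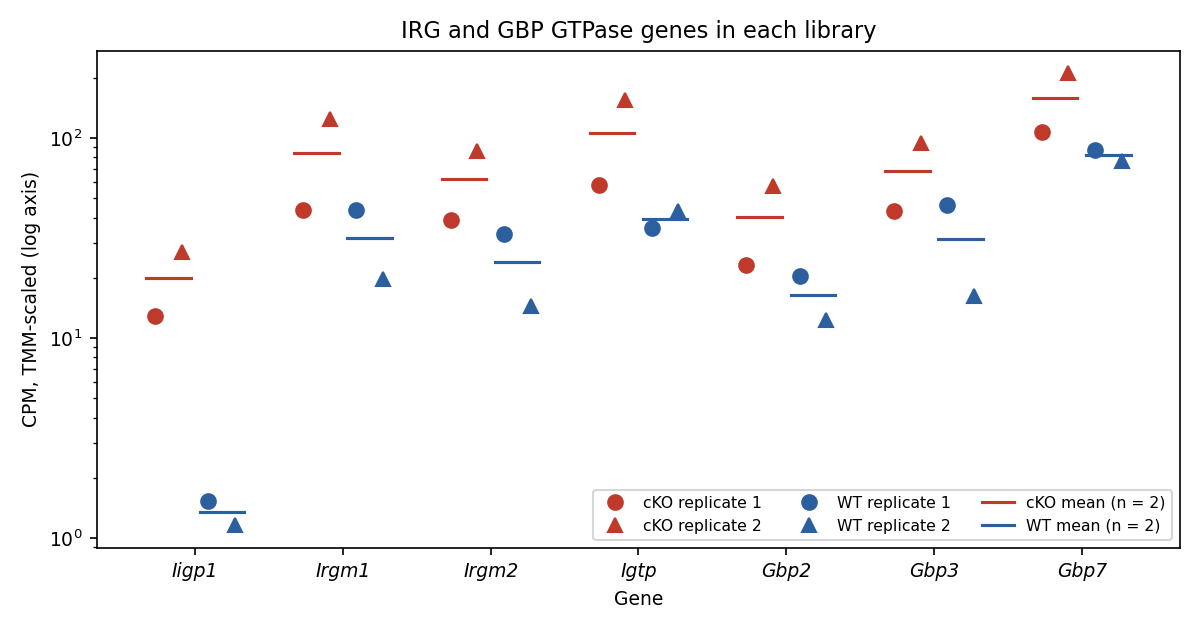
Level of each GTPase gene in each library, in TMM-scaled CPM on a log axis, with cKO in red left of WT in blue, replicate 1 as circles, replicate 2 as triangles and bars for the group means (n = 2 each). Iigp1 sits at 12.9 and 26.9 CPM in cKO and 1.53 and 1.16 CPM in WT, while for the other genes cKO replicate 1 lies at 0.934 to 1.63 times WT replicate 1.

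Over the 7 genes the median fitted log2 fold change was 1.39, against -0.03 over all 13086 genes tested, and it was 0.50 without cKO replicate 2 and 2.07 without WT replicate 1. All 7 passed the filter on low counts. The cKO values did not overlap the WT values and were higher for 6 of 7, against 15.8% of all genes tested, and lower for 0 of 7, against 20% of all genes. Among these 6 is Irgm1, which was at 43.8 CPM in both cKO replicate 1 and WT replicate 1 and separated only in decimals. All 7 were fitted higher, against 48.2% of all genes. None of the 7 passed edgeR's quasi-likelihood test after Benjamini-Hochberg adjustment (adjusted p under 0.05), and 0% of all genes did in either direction. Of the 7, 2, Iigp1 and Igtp, had an unadjusted p under 0.05, against 608 genes or 4.65% of all. DESeq2 called 1 of the 7, Iigp1, where it called 0.171% of genes higher and 0.216% lower. These counts describe the members, which were chosen on this contrast.

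The ratios between libraries were larger for Iigp1 than for the other members wherever a cKO library was set over a WT library. In cKO replicate 1 over WT replicate 1, the ratio of CPM was 8.44 for Iigp1 and 0.934 to 1.63 for the other 6, with a median of 1.16. In cKO replicate 2 over WT replicate 2 it was 23.2 for Iigp1 and 2.73 to 6.36 for the others. Inside the groups Iigp1 moved less than between them. cKO replicate 2 was 2.08 times cKO replicate 1 for Iigp1 and 1.96 to 2.85 times for the others, and WT replicate 1 was 1.32 times WT replicate 2 for Iigp1 and 0.823 to 2.85 times for the others.

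**Figure D2:**
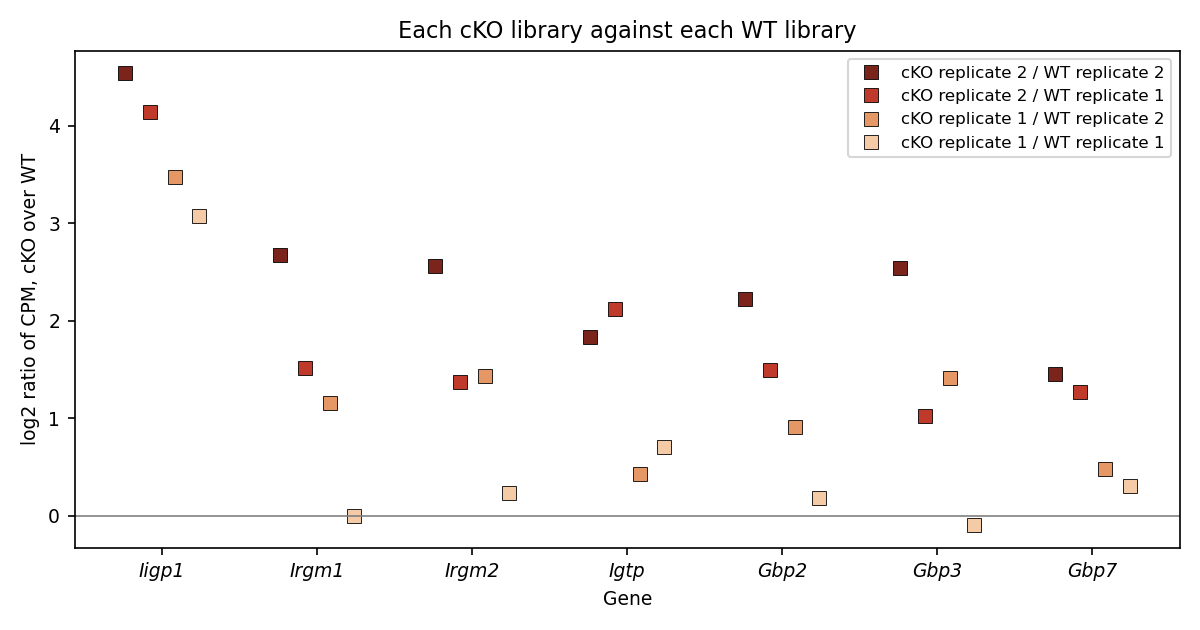
Log2 ratio of TMM-scaled CPM for each cKO library over each WT library (squares, 4 per gene), which share libraries and are not independent. The ratio of cKO replicate 1 over WT replicate 1 is 8.44-fold for Iigp1 and between 0.934- and 1.63-fold for the other genes.

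Per length, Igtp was the most abundant member and Iigp1 the least. The deposited FPKM of Igtp were 28.8 and 78.0 in cKO libraries and 17.4 and 20.9 in WT libraries, and those of Gbp7 were 19.2 and 38.4 in cKO and 15.4 and 13.4 in WT. Gbp3 followed with 13.3 and 29.6 in cKO and 14.0 and 4.87 in WT. Irgm2, Gbp2 and Irgm1 were close together, with FPKM means over all 4 libraries of 11.8 ± 8.54, 11.4 ± 8.26 and 10.1 ± 8.21 (SD over 4 libraries). Iigp1 was last with 4.15 and 8.84 in cKO and 0.485 and 0.364 in WT. Each gene lay above the next in the order in all 4 libraries, except that Gbp2 lay above Irgm2 in WT replicate 2. The difference between the means of neighbours was smaller than the SD of the upper gene at each of the 6 steps, and that SD holds the differences between libraries.

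Of the shares compared here, those of Iigp1 and Gbp7 did not overlap between the groups, while those of Igtp and Gbp3 varied more in percentage points. Iigp1 made up 4.47% and 3.94% of the summed FPKM of the 7 genes in cKO replicates 1 and 2 and 0.676% and 0.706% in WT replicates 1 and 2. The share of Gbp7 was lower in cKO, at 20.7% and 17.1% in cKO libraries and 21.5% and 26.1% in WT libraries. Igtp made up 31.0% and 34.8% in cKO libraries and 24.2% and 40.5% in WT libraries, and Gbp3 14.3% and 13.2% in cKO and 19.6% and 9.45% in WT. For these 2 genes the shares in the cKO libraries lay between those in the WT libraries. The summed FPKM of all 7 was 92.7 and 224.2 in cKO libraries and 71.7 and 51.5 in WT libraries.

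**Figure D3:**
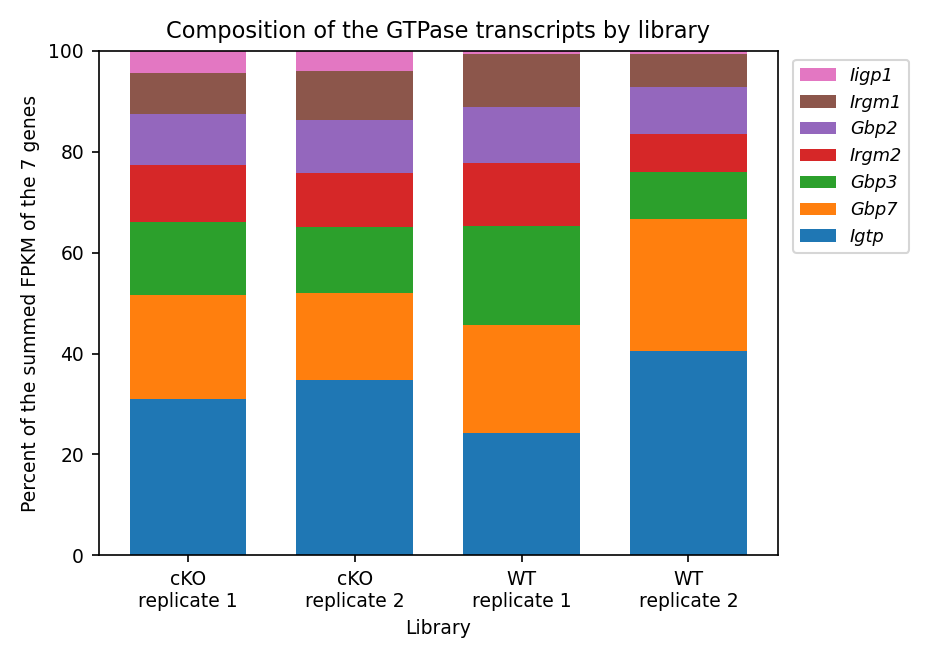
Share of each gene in the summed FPKM of the 7 GTPase genes, in percent, for each library. Iigp1, on top, holds 4.47% and 3.94% in the cKO libraries and 0.676% and 0.706% in the WT libraries.

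Several members share stretches of sequence or exonic bases with other genes, which can affect their counts. Of the distinct 50-base stretches in the GENCODE M21 transcripts of a member, 11.8% of those of Igtp were also found in Irgm2, and 7.83% of those of Irgm2 in other genes, mostly Igtp. These 2 genes share 162 exonic bases on the same strand. For Gbp7 the share was 12.7%, mostly with the overlapping predicted gene Gm43802, and for Gbp3 it was 3.75%, nearly all with Gbp7. It was 2.03% for Gbp2, all with Gbp2b, which was not analysed here, 1.69% for Iigp1, mostly with its relative Gm4951, and 0.379% for Irgm1. The authors' treatment of reads that match several genes is not stated in these sources, so levels of Igtp, Irgm2 and Gbp7 in particular are uncertain. The length behind the FPKM of Iigp1 was 3121 bases, where GENCODE M21 annotates 5823 exonic bases, so its per-length level depends on the gene model.

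The authors compared each cKO library with each WT library, and the 4 comparisons share libraries. In the authors' deposited table for cKO replicate 1 against WT replicate 1, 1 of the 7 members, Iigp1, was called higher, where 20.3% of all genes in the table were. The authors' deposited table for cKO replicate 1 against WT replicate 2 called 4 members higher (Iigp1, Irgm1, Irgm2 and Gbp3), against 17.2% of all genes. For cKO replicate 2 all 7 were called higher, against 18.1% of all genes in the authors' deposited table with WT replicate 1 and 17.1% in that with WT replicate 2. Iigp1 had folds of 8.55, 11.4, 18.2 and 24.3 in the authors' deposited tables, in that order, and Gbp7 had 1.25, 1.43, 2.49 and 2.86. The lowest fold among the called genes was 2.00. In 78.9% to 86.2% of the genes in the authors' deposited tables the adjusted p was below the p itself, and the method is not stated. None of the 7 was called lower in the authors' deposited tables, against 15.8%, 17.6%, 28.7% and 31.7% of all genes. By an adjusted p under 0.001 and a higher value alone, 4, 7, 7 and 7 members passed in the authors' deposited tables, against 31.8%, 28.3%, 34.1% and 31.9% of all genes.

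Other genes of the IRG family did not share a direction. Of the 19 names listed, 10 had a row and 8 were tested, 6 of them fitted higher and 2 lower, and the median log2 fold change was 0.18 against -0.03 over all genes. None passed edgeR in either direction, 1 had an unadjusted p under 0.05 (4.65% of all genes), and DESeq2 called 1 lower (0.216% of all genes). That gene, Irgq, which encodes a divergent IRG-like protein, had 0 and 2 counts in cKO libraries and 181 and 125 in WT libraries, with a DESeq2 adjusted p of 0.00349. Gm4951, the neighbour of Iigp1 in sequence, had 76 and 792 counts in cKO libraries and 98 and 22 in WT libraries, so the groups overlapped, and its log2 fold change of 2.88 was 0.22 without cKO replicate 2. Tgtp2, an effector IRG, had 17 and 171 counts in cKO and 26 and 11 in WT. Its high value was likewise in cKO replicate 2, and its log2 fold change of 2.36 was -0.25 without that library. Irgc1, known from testis, had 74 and 194 counts in cKO and 41 and 2 in WT. F830016B08Rik, named outside the rule after its values were seen, had 125 counts in cKO replicate 2 and 0 in each of the other libraries.

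Among the other GBPs and related large GTPases, 11 of 15 listed names had a row and 9 were tested, of which 8 were fitted higher and 1 lower, with a median of 0.90. None passed edgeR, 1 had an unadjusted p under 0.05 (4.65% of all genes), and DESeq2 called none (0.171% of all genes higher, 0.216% lower). The groups did not overlap, with cKO higher, for 3 of the 9, Gbp4, Gbp5 and Gbp6, against 15.8% of all genes. Gbp5, the upstream neighbour of Gbp7 on chromosome 3, whose product promotes inflammasome assembly, had 199 and 127 counts in cKO libraries and 39 and 14 in WT libraries. Its log2 fold change was 2.56 (SE 0.94), and unlike in the 7 members its highest value was in cKO replicate 1. Gbp6, from the chromosome 5 cluster, had 61 and 61 counts in cKO and 12 and 4 in WT, a log2 fold change of 2.87 (SE 1.30). Of Gm8995 and Gm1966, listed with the very large inducible GTPases, Gm8995 had 773 and 953 counts in cKO and 1399 and 824 in WT, and Gm1966 had 19 and 511 in cKO and 99 and 36 in WT.

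Upstream of the members, the interferon-gamma signalling genes were centred on a log2 fold change of 0.04 (median of 11 tested genes of 12 listed), with 6 fitted higher and 5 lower and none passing edgeR, an unadjusted p under 0.05 (4.65% of all genes) or DESeq2. Ifng itself was not analysed here. The receptor chain gene Ifngr1 had a log2 fold change of 0.33 (SE 0.21), with both cKO libraries above WT, and 0.089 without WT replicate 1. Socs1, an inhibitor of the JAK kinases that is induced by interferon-gamma, had 115 and 100 counts in cKO and 47 and 33 in WT, a log2 fold change of 1.36 (SE 0.87). Irf8, a myeloid transcription factor, had a log2 fold change of -0.35 (SE 0.26), and -0.046 without cKO replicate 2. T and NK cells, the main source of interferon-gamma, were hardly seen. Counts were available for 3 of 14 markers, summing to 2.74 and 1.00 CPM in cKO libraries and 1.53 and 0.887 CPM in WT libraries. Nkg7 and Il2rb had FPKM values only, of 0.138 in WT replicate 1 and 0.024 in WT replicate 2, and 0 elsewhere. Cd3e had 0 counts in both cKO libraries and in WT replicate 2 and 6 in WT replicate 1. The libraries are of isolated microglia, so these counts do not tell whether such cells were in the tissue, which was not tested.

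Genes that respond preferentially to interferon-gamma had a median of 0.31 over 7 tested of 12 listed, 5 fitted higher and 2 lower, with none passing edgeR, an unadjusted p under 0.05 (4.65% of all genes) or DESeq2. Psmb9, an immunoproteasome subunit gene, had 967 and 610 counts in cKO libraries and 523 and 418 in WT libraries, a log2 fold change of 0.67 (SE 0.34), and 0.39 without cKO replicate 1. Nlrc5, the activator of MHC class I genes, had 376 and 29 counts in cKO and 106 and 25 in WT. The MHC class II genes H2-Ab1 and H2-Eb1 had 671 and 244, and 0 and 34, counts in cKO libraries, against 421 and 581, and 0 and 13, in WT libraries, and the groups overlapped in both.

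The type I interferon effectors, all 12 tested, were all fitted higher. Their median log2 fold change was 2.31, and 1.07 without cKO replicate 2, and in 8 the cKO values were higher without overlap, against 15.8% of all genes. None passed edgeR, 4 had an unadjusted p under 0.05 (4.65% of all genes) and DESeq2 called 2 higher, Ifit3 and Ifi44 (0.171% of all genes). Ifit3, which encodes an RNA-binding antiviral protein complex subunit, had 477 and 3171 counts in cKO libraries and 291 and 100 in WT libraries, and its log2 fold change of 3.24 was 1.16 without cKO replicate 2. Ifi44 had 176 and 190 counts in cKO and 0 in each WT library, so its fitted value is not given. It is the highest of the list, and the median does not depend on its size. Cmpk2, a mitochondrial nucleotide kinase gene, had 231 and 1209 counts in cKO and 125 and 37 in WT, and Bst2, which encodes tetherin, had 4341 and 4340 in cKO and 2697 and 1335 in WT. Of the signalling genes of this pathway 7 of 8 were tested, with 5 fitted higher and 2 lower and a median of 0.66. None passed edgeR, an unadjusted p under 0.05 (4.65% of all genes) or DESeq2 (0.171% of all genes higher, 0.216% lower). In 4 of the 7 the cKO values were higher without overlap and in 0 lower, against 15.8% and 20% of all genes. Stat2 and Irf9, whose products act at the ISRE, had log2 fold changes of 0.66 and 0.70 with SEs of 0.30 and 0.32. The fold changes were 0.37 and 0.34 without WT replicate 2 and 1.00 and 1.15 without WT replicate 1. Irf7, a further transcription factor gene, had 1.73 (SE 1.02), and Usp18, a brake on receptor signalling, had 2.33 (SE 1.33). Without cKO replicate 2 these were 0.83 and 0.99, and without WT replicate 1 they were 3.43 and 5.003. The difference between these lists and the 7 GTPases was not tested.

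The machinery that directs IRGs and GBPs to vacuoles had 13 tested of 15 listed genes and a median of -0.25 (log2 fold change), 4 fitted higher and 9 lower. None passed edgeR or DESeq2 and 1 had an unadjusted p under 0.05 (4.65% of all genes). Atg12, a ubiquitin-like protein gene of the autophagy conjugation system, had 2190 and 2731 counts in cKO libraries and 1447 and 1313 in WT libraries, and Traf6, a ubiquitin ligase gene, had 449 and 392 in cKO and 736 and 570 in WT. Map1lc3a and the autophagy receptor gene Sqstm1 had log2 fold changes of -0.47 each, and of -0.19 and -0.10 without cKO replicate 2. Partners of GBPs in inflammasome activation had a median of 0.36 over 8 genes, 7 fitted higher and 1 lower, with none passing edgeR or DESeq2 and 2 at an unadjusted p under 0.05 (4.65% of all genes). Casp4, encoding the caspase-11 protease that GBPs help to activate on bacterial lipopolysaccharide, had 402 and 519 counts in cKO libraries and 104 and 101 in WT libraries, a log2 fold change of 2.11 (SE 0.46). Il1b had 412 and 369 counts in cKO and 111 and 147 in WT, and Il18 had 323 and 626 in cKO and 215 and 195 in WT. Il18 and Casp1 had log2 fold changes of 1.17 and 0.44, and of 0.51 and 0.056 without cKO replicate 2.

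**Figure D4:**
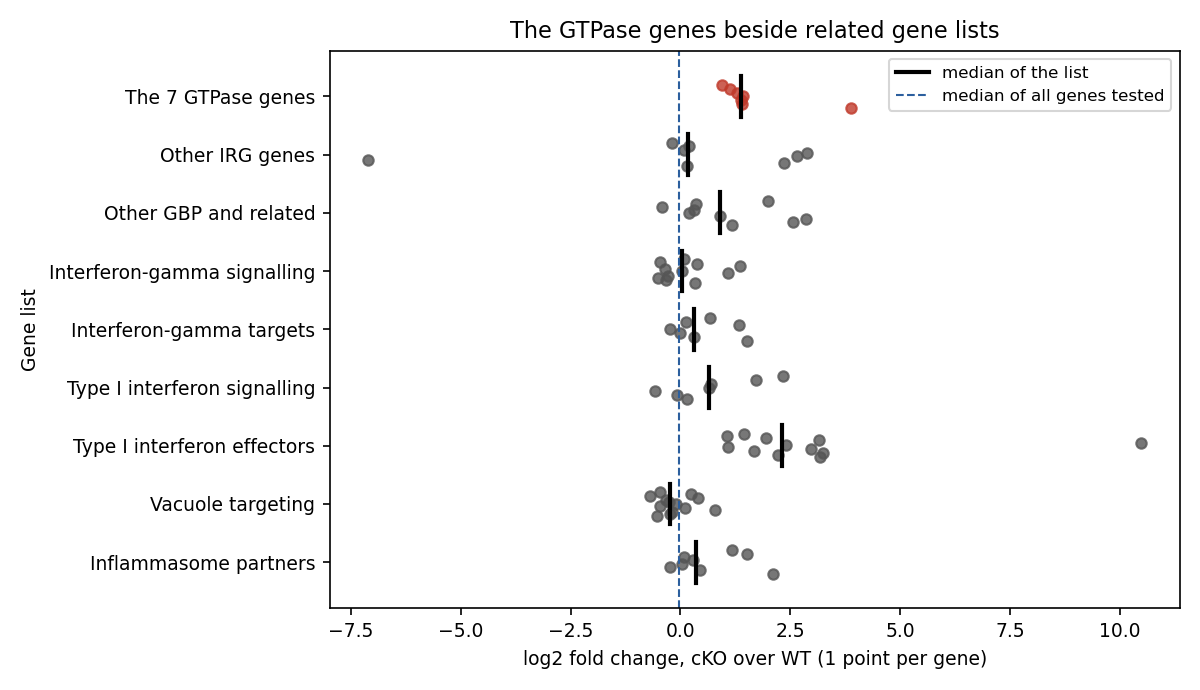
Fitted log2 fold change of cKO over WT for each tested gene (points) of the 7 GTPase genes and of related lists, with the median of each list as a black bar and that of all genes tested as a dashed line. The medians are 1.39 for the GTPase genes, 2.31 for type I interferon effectors and 0.04 for interferon-gamma signalling.

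The genes nearest in pattern to Iigp1 were sought among 8922 named genes averaging 5 CPM or more, by the root mean square difference of log2 CPM profiles over the 4 libraries after each profile was centred on its own mean. The 5 nearest were Fosl2 (0.39), an AP-1 transcription factor gene, the interferon-induced Ifi27l2a (0.45), Tmc4 (0.47), Zc3hav1l (0.57) and Zfp975 (0.61). Fosl2 was at 9.95 and 17.1 CPM in cKO libraries and 2.04 and 1.16 CPM in WT libraries. The other 6 members stood at 1.18 to 1.41 from Iigp1, with 125 to 367 genes nearer to it than they were. Nearest to the mean of those 6 were Cracr2a (0.092), Arhgef12, Aunip, Ahctf1 and Nthl1 (0.12), of which Cracr2a was at 13.6 and 33.3 CPM in cKO and 12.7 and 8.19 CPM in WT. Gbp2 was nearer to that mean, at 0.027, than any of these genes, as a part of it, whereas Igtp stood at 0.37. With 4 libraries, these distances describe only these libraries.

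**Figure D5:**
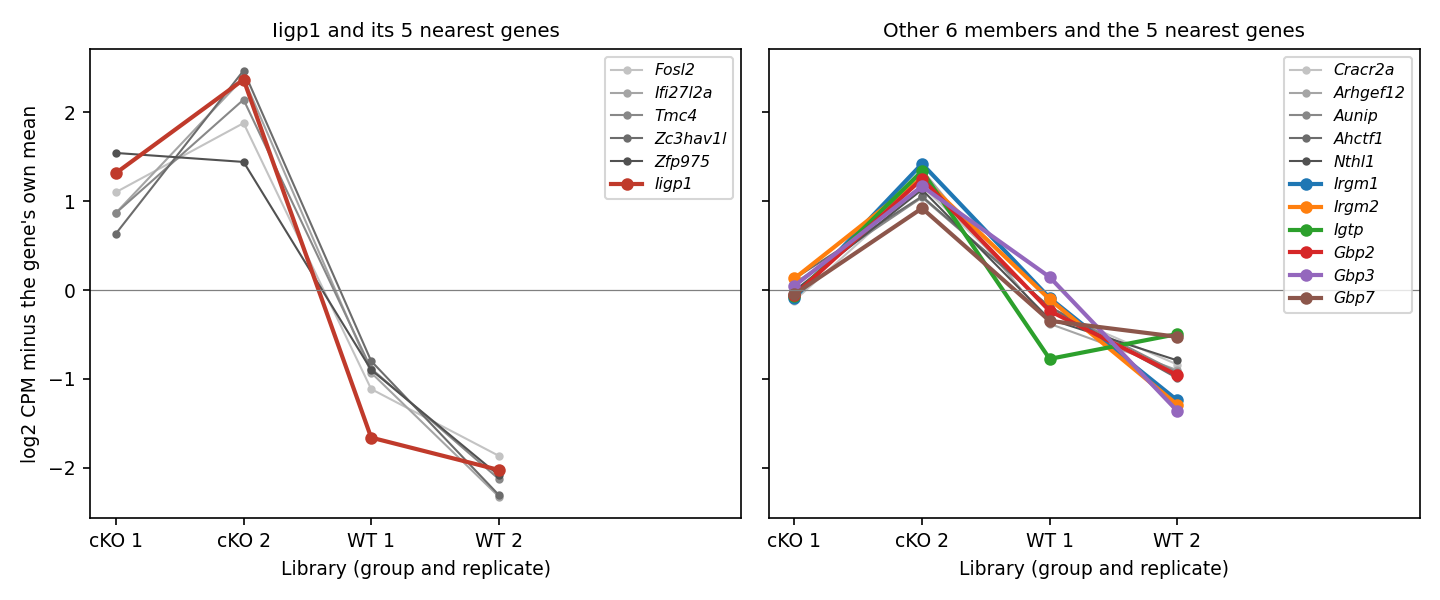
Log2 CPM of each gene minus its own mean over the 4 libraries, for Iigp1 with its 5 nearest genes (left) and for the other 6 members with the 5 genes nearest to their mean (right), where lines only join the values of a gene. Iigp1 is above its mean in both cKO libraries, at 1.32 and 2.37, whereas the other members lie near 0 in cKO replicate 1, at -0.09 to 0.13.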

How the data were processed

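Total RNA libraries of 2 cKO and 2 WT samples were sequenced. Tools named in the submitters' processing notes are HTSeq 0.6.0, TopHat2 2.0.12 and Bowtie2 2.2.3, with the build mm9; settings, strand and annotation are not. Positions of genes as deposited are those of GRCm38, with 92.1% of 21008 shared genes at the same place in GENCODE M21. The authors deposited FPKM values per gene, and 4 tables of 1 cKO against 1 WT library. Per the file headers these hold read counts, a normalized signal (the CPM, with 0.5 counts in place of 0), a fold change (ratio) and its log2, and p-values with and without adjustment, the test not being stated.

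Joining the tables gave counts of 18459 genes, with 0 disagreements between the tables of a library. A library's count missing from both its tables was recovered from the deposited FPKM, for 4315 of 73836 cells, and 100.0% of these came out whole (tolerance 1e-06). All counts of the 7 GTPase genes were deposited as such. Chi-square per gene between the libraries of a group was 107.4 in cKO and 27.8 in WT, above sampling noise. Genotypes were compared by the quasi-likelihood F test of edgeR 4.0.16 (R 4.3.3), after filterByExpr left 13086 genes, on TMM-scaled libraries and with Benjamini-Hochberg adjustment. A standard error is the absolute log2 fold change over the root of F. Alternatives were DESeq2 1.42.0, limma 3.58.1 on log2(FPKM + 1) and log2(FPKM + 0.1), other scaling factors, no filter, a replicate block and leaving out each library. The scripts were tested on simulated data. The members, lists, naming rule and tests were chosen with earlier results of these data known. Named are the 7 members, up to 4 genes of each of 8 related lists by smallest unadjusted p, and 5 nearest genes per pattern; others were named after their values were seen. The floor of 3 counts covers counting error only. A gene of the related lists that the naming rule includes is not reported here.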

Additional observations from a re-analysis of the deposited data

How the results depend on the processing

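No member of the 7 changed direction under the 11 alternatives, which were planned, and their median log2 fold change was 0.50 to 2.07 with 1 library left out, lowest without cKO replicate 2. edgeR called 0 genes of 13086 and DESeq2 called 52. With 1 library left out edgeR called 0 to 748, with 748 without cKO replicate 1, a fit that takes the spread of the single cKO library from WT. In that fit the 7 members, which were chosen on this contrast, had a median log2 fold change of 1.85. The fit moved the median of all genes by -0.12.

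No label ties libraries by replicate number, and the deviations of libraries with the same number correlated at -0.023 across genes. With the replicate block 0 genes passed, Iigp1 had a log2 fold change of 3.79, and the median of other IRG genes turned to -0.060, as it did to -0.018 with limma on log2(FPKM + 0.1).

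With 1 library left out, list medians were 0.17 to 0.52 for other IRGs, 0.091 to 2.46 for other GBPs, -0.32 to 0.16 for interferon-gamma signalling (-0.32 without WT replicate 2 and -0.022 without WT replicate 1), -1.03 to 0.90 for interferon-gamma targets (-1.03 without cKO replicate 1), 0.37 to 1.00 for type I signalling, 1.07 to 4.01 for type I effectors, -0.25 to -0.10 for vacuole targeting and 0.29 to 0.54 for inflammasome partners. Interferon-gamma signalling was 0.087 and 0.093 with limma and pseudocounts of 1 and 0.1. Signs turned within these fits for Tgtp2 (-0.25 to 3.23), Gm1966 (-1.95 to 2.95) and H2-Eb1 (-5.82 to 7.16), lowest without cKO replicate 2, for Nlrc5 (-1.13 to 2.83), lowest without cKO replicate 1, and for H2-Ab1 (-1.03 to 0.27, and 0.062 without WT replicate 2). The cause was not tested. At an adjusted p under 0.001 alone, the authors' deposited tables would give 4 and 7 members higher for cKO replicate 1 against WT replicates 1 and 2. The order by FPKM was the same for all 7 genes by TPM, which within a library holds by definition and is not a check.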
